A study of Mus musculus with 6 samples.

Results

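A group of 9 transcripts with well known A-to-I recoding sites, *Azin1*, *Blcap*, *Copa*, *Cog3*, *Cyfip2*, *Flna*, *Igfbp7*, *Tmem63b* and *Cdk13*, was followed at the level of whole-gene expression in P4 sciatic nerves. The 9 genes were looked up by symbol among the 59485 genes of the deposited table, and each matched 1 row. Their mRNA levels were compared between mutants and controls, and editing itself was not measured here.

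Sciatic nerves were taken at postnatal day 4 (P4) from 3 control and 3 mutant mice, and each animal gave 1 poly-A RNA-seq library. The labels give the mutants as Ht-PA-Cre; Adar1fl/fl;R26R, in which the human tissue plasminogen promoter drives Cre and Cre removes the floxed Adar1 (*Adar*) segment in neural crest (NC) cells and R26R is a YFP tracer of those cells. The labels call the controls wild-type, a name under which the methods of the study place animals that carry the floxed Adar1 allele on 1 or both chromosomes together with R26R but lack Cre. The nerve also holds endothelial cells, fibroblasts, perineurial cells, macrophages and blood, some of which do not derive from the NC, so the values add up all of these cells.

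In A-to-I editing, enzymes of the ADAR family deaminate adenosines within double-stranded RNA, and the ribosome reads the resulting inosine as guanosine. Most editing falls in repeats outside coding sequence, but a small set of sites, many of them conserved between mouse and human, changes an amino acid of the protein. ADAR1 (*Adar*) is the main editor of repeats and of the *Azin1* site, ADAR2 (*Adarb1*) is the main editor of the *Flna*, *Cyfip2*, *Copa* and *Tmem63b* sites, and the *Blcap* site is known to be edited by both. Editing of a single codon changes the protein that a transcript encodes and need not change how much of the transcript there is.

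The 10 recoded adenosines of the 9 transcripts are shown because they are what the genes have in common. Each line holds 25 bases of the coding strand of the principal GENCODE M21 transcript (GRCm38, the assembly also called mm10), written 5′ to 3′ with the edited adenosine in capitals and 12 bases on either side.
Azin1: caaattgtggaaAgctgtcttcttc
Copa: cgcgtttgggatAtttctggtctaa
Cog3: accattaaggaaAtttccctggacc
Cyfip2: gccagatacattAagaccagtgctc
Flna: tttctagtcttcAggagtcagggtt
Igfbp7, first site: ggcgcggccggcAgggggcactgcg
Igfbp7, second site: gcaagaggcggaAgggtaaagccgg
Tmem63b: cctacgagttccAgtttggcgcagc
Cdk13: ccggagggcggcAgaagcggcgccg
Blcap: cagagatcatgtAttgcctccagtg
The adenosines lie at chr15:38491612 in exon 11 of 12 (*Azin1*), chr1:172092348 in exon 6 of 33 (*Copa*), chr14:75719719 in exon 17 of 23 (*Cog3*), chr11:46272643 in exon 10 of 31 (*Cyfip2*) and chrX:74226862 in exon 42 of 47 (*Flna*). The others lie at chr5:77407783 and chr5:77407731, both in exon 1 of 6 (*Igfbp7*), at chr17:45662949 in exon 20 of 24 (*Tmem63b*), at chr13:17804344 in exon 1 of 14 (*Cdk13*) and at chr2:157558149 in exon 2 of 2 (*Blcap*). All 10 are in coding sequence. *Copa* and its sequence are on the plus strand and the other 8 genes on the minus strand. The *Copa* and *Flna* windows cross an exon junction. The *Blcap* window begins just before the start codon.

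Read as guanosine, these adenosines turn serine into glycine in *Azin1*, isoleucine into valine in *Copa* and *Cog3*, lysine into glutamate in *Cyfip2*, and glutamine into arginine in *Flna*, *Tmem63b* and *Cdk13*. In *Igfbp7* they turn arginine into glycine and lysine into arginine, and in *Blcap* tyrosine into cysteine. The base before the edited adenosine was A at 3 sites, C at 4, T at 3 and G at 0 of 10, whereas G preceded 28% of all 6945 adenosines in the same coding sequences. The base after it was G at 6 sites, T at 3, A at 1 and C at 0, against 31.6% G and 21.7% C over the same adenosines. ADAR enzymes are known to disfavour a G before the adenosine and to favour a G after it, and 10 sites are too few to test such a difference.

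The targeted gene did not go with the labels. *Adar*, which encodes ADAR1, had values of 1602, 2066 and 1133 in the 3 control libraries and of 11768, 9311 and 9773 in the 3 mutant libraries, a log2 fold change of 2.72 (SE 0.20, limma adjusted p = 4.1e-05). The table holds 1 value per gene, and does not show which part of *Adar* the reads came from. For this reason the libraries are named as control-labelled and mutant-labelled libraries, and the labels alone set every direction. All values are reads on constitutive gene regions divided by a size factor per library. They are not scaled by gene length, so levels are compared between libraries and not between genes. Reads on genes were 50.9 to 68.7 M in the control-labelled libraries and 78.3 and 59.1 M in mutant-labelled replicates 1 and 2. They were not used for mutant-labelled replicate 3, whose deposited values sum to 56.4 M. The groups were apart on the first principal component (57.5% of the variance), and the 10 genes with the highest values took 17.6 to 18.7% of the control-labelled and 9.87 to 14.4% of the mutant-labelled libraries. Summed Schwann cell (SC) marker values were 1137600 to 1505410 in the control-labelled and 58038 to 214076 in the mutant-labelled libraries, and 6 of 8 of these markers fell with none at 0 in any library. Fibroblast marker sums were 2493720 to 2896890 and 1021020 to 1493920 (3 of 7 fell), macrophage sums 9984 to 13636 and 4938 to 6600 (2 of 7 rose and 3 fell), and erythroid sums 44144 to 62503 and 4108 to 12706 (4 of 5 fell), in the control-labelled and mutant-labelled libraries. Among all genes tested 19% rose and 16% fell.

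All 9 transcripts were expressed well above the filter of the test (a group mean of 10 or more), with recovered reads from 117 for *Cyfip2* to 107860 for *Flna* in a single library. *Azin1*, *Copa* and *Tmem63b* fell, *Blcap* and *Igfbp7* rose, and the other 4 did not pass the test. Thus 5 of 9 had an adjusted p at or under 0.05 (limma on log2(value + 1), Benjamini-Hochberg over 25802 genes), beside 35% of all genes tested. Of the 9, 2 rose, beside 19% of all genes, and 3 fell, beside 16%. Where the libraries were scaled to the same total, 3 of the 9 rose and 2 fell, and the share of rises among all calls went from 54.3 to 67.1%. Without control-labelled replicate 3, and also in a fit without limma's trend of variance with mean, 2 of the 9 were called and 0 rose. The groups did not overlap for 6 of 9, beside 49.2% of all genes. Calls were more frequent among well expressed genes, with 53.3% of the 7828 genes with a mean of at least 1000 called. Of the edited transcripts 7 were in this range, and 5 of these 7 were called. The other 2, *Cog3* and *Cyfip2*, were not. Only *Tmem63b* passed the study's limits of 2-fold or more and p at or under 0.05, with p taken here as unadjusted since the methods name no adjustment, beside 24.2% of all genes in either direction and 10.4% for a fall. Here p came from limma over 25802 genes. The study applied its limits to DESeq2 over the genes it counted as expressed, so these shares are not the study's. The median log2 fold change of the 9 was -0.08 and that of all genes 0.03.

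**Figure D1:**
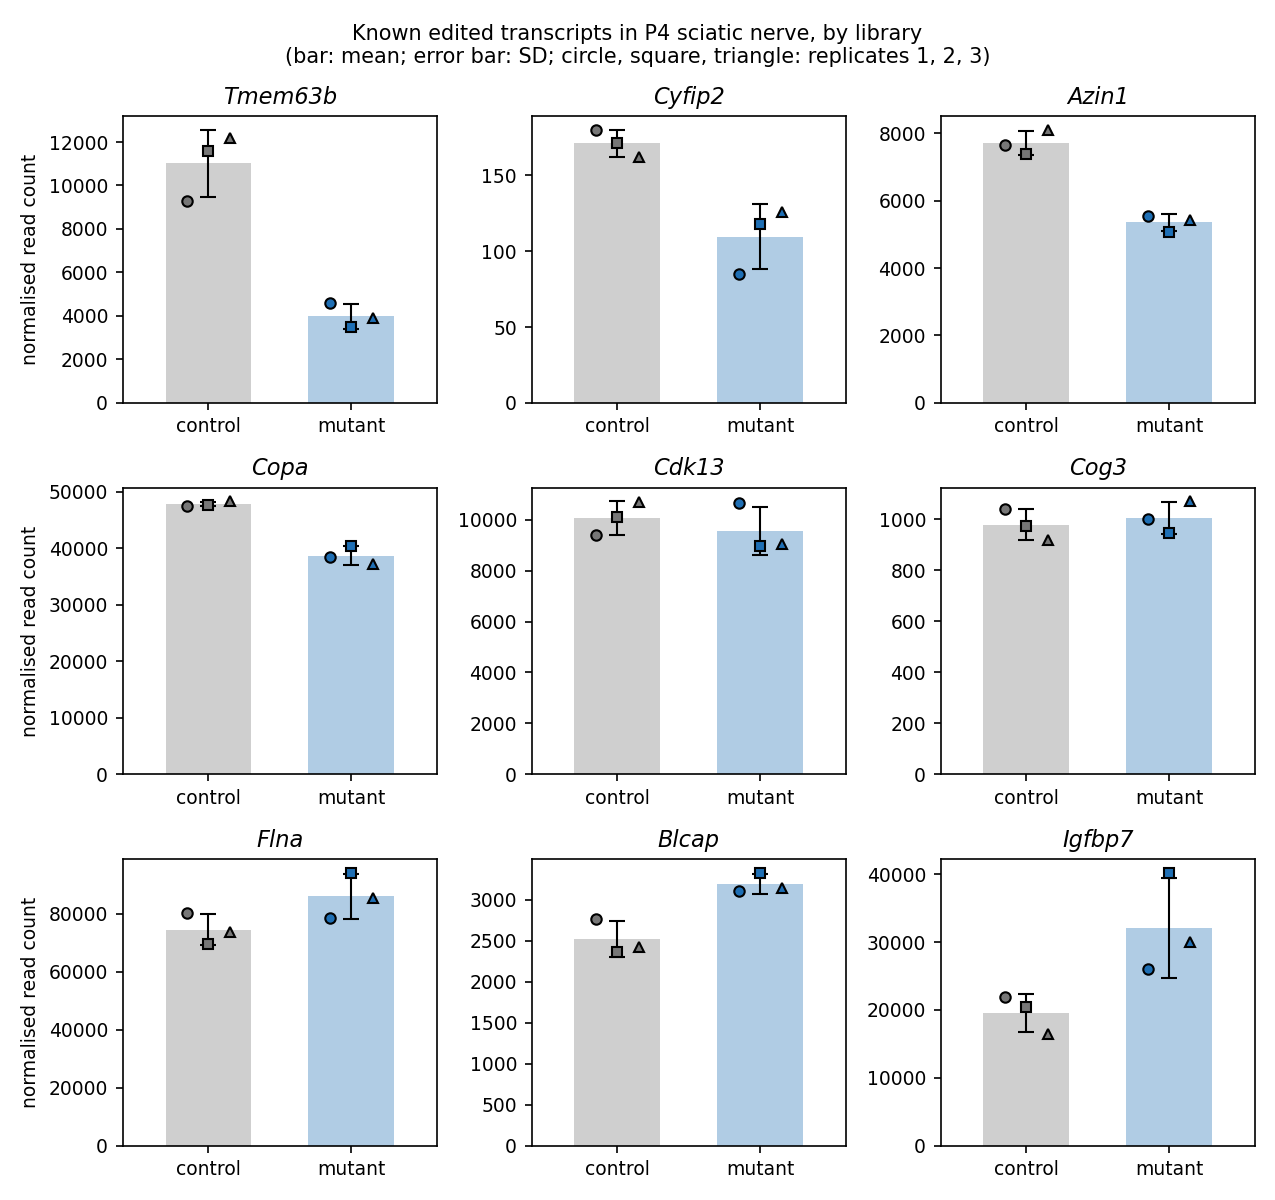
Deposited normalised value of each edited transcript in each library, 1 panel per gene with its own axis from 0, for 3 control-labelled and 3 mutant-labelled libraries; points are libraries and bars are group means with their SD. The groups are apart for *Tmem63b*, *Azin1*, *Copa*, *Cyfip2*, *Blcap* and *Igfbp7*, and overlap for *Cog3*, *Flna* and *Cdk13*.

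**Figure D2:**
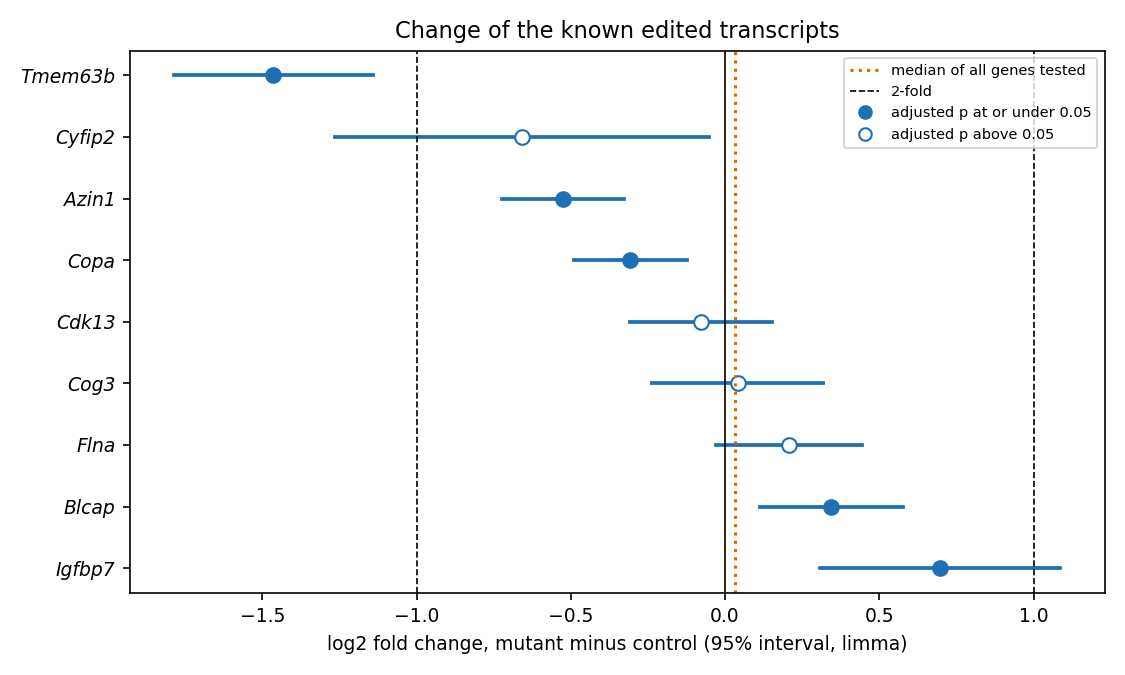
Log2 fold change of each edited transcript, mutant minus control, from limma with its 95% interval; filled points have an adjusted p at or under 0.05, and the dotted line is the median of all genes tested. *Tmem63b* lies at -1.46 with its whole interval past 2-fold, while the intervals of *Cog3*, *Flna* and *Cdk13* include 0.

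*Tmem63b* (GSMG0017580, chr17:45660172-45686223) encodes a channel of the OSCA/TMEM63 family, cation channels that open when the membrane is stretched. Its values, in the order of the replicate numbers as throughout, were 9276, 11607 and 12174 in the control-labelled libraries and 4613, 3472 and 3896 in the mutant-labelled ones. All 3 mutant-labelled libraries were lower than all 3 control-labelled ones, with a wide gap between the groups. The means were 11019 ± 1536 and 3994 ± 577 (SD, n = 3), and the level fell 2.76-fold. The log2 fold change was -1.46 (SE 0.14, 95% interval -1.79 to -1.14, limma adjusted p = 0.000132). This was the largest change among the 9 transcripts, and it held under all 17 other settings and left-out libraries tried, with values between -1.58 and -1.30. No other gene of the table overlaps *Tmem63b*. The fall went with that of the SC markers given above. Fewer cells of a type and less RNA per cell cannot be told apart from the RNA of a whole nerve alone. By electron microscopy, the study counted similar numbers of SCs in P4 nerves of mutants and controls. Whether the lower SC signal has a part in the fall of *Tmem63b* was not tested.

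Among the related channel genes 1 passed the test, beside 35% of all genes. Of the 5 tested of 6 listed (*Tmem63a*, *Tmem63c*, *Piezo1*, *Piezo2*, *Tmc1* and, untested, *Tmc2*), 1 rose and none fell, with a median log2 fold change of 0.08. The paralog *Tmem63a* had mean values of 397 ± 77.7 and 418 ± 69 (log2 fold change 0.08, adjusted p = 0.802, limma). *Piezo1*, a large stretch-activated channel abundant in vessels, was the one that rose, from 5283 ± 582 to 8135 ± 942 (log2 fold change 0.62, adjusted p = 0.00519, limma). *Piezo2*, the touch channel of sensory neurons, was at 1801 and 1699 (adjusted p = 0.738, limma). *Tmc1* and *Tmem63c* had low values. *Tmc1* was at 23.3, 45.4 and 32.9 in the control-labelled and at 5.82, 19.3 and 13.8 in the mutant-labelled libraries, lower without overlap (-1.41, adjusted p = 0.117, limma). *Tmem63c* was at 0, 18.9 and 0 and at 16, 15.4 and 27.7, with overlapping groups (2.88, adjusted p = 0.104, limma), which is past the study's limits. By profile over the 6 libraries, the genes nearest to *Tmem63b* were *Ttyh1*, with a root-mean-square difference of 0.058 on the log2 scale, and *Paqr4*, with 0.061. Their log2 fold changes were -1.41 and -1.498.

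*Azin1* (GSMG0013898, chr15:38487430-38519267) encodes antizyme inhibitor 1, which binds antizyme in place of ornithine decarboxylase and so spares that enzyme of polyamine synthesis from degradation. It had values of 7655, 7388 and 8097 in the control-labelled libraries and of 5555, 5079.9 and 5439 in the mutant-labelled ones. The groups were well apart and each was tight, with means of 7714 ± 358 and 5358 ± 248 (SD, n = 3). The level fell by 30.5% (log2 fold change -0.53, SE 0.086, 95% interval -0.72 to -0.33, limma adjusted p = 0.0021). The call held under all 17 other settings and left-out libraries, at -0.56 to -0.36.

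Of the 11 other genes of polyamine metabolism and its antizymes, 1 rose, 3 fell and 7 did not pass the test (median log2 fold change 0.05). The share called over all genes was 35%. *Oaz1*, the main antizyme and thus the protein that *Azin1* binds, shares its row with the pseudogene *Oaz1-ps* and fell from 8488 ± 1032 to 5940 ± 247 (-0.51, adjusted p = 0.00654, limma), although not in the fit without a trend (adjusted p = 0.0503). The catabolic enzymes *Sat1*, which acetylates spermidine and spermine, and *Smox*, which oxidises spermine, fell by 0.72 and 1.17 on the log2 scale (adjusted p = 0.00117 and 0.00146, limma). *Sms*, spermine synthase, rose from 234 to 433 (0.86, adjusted p = 0.0167, limma), a call that was lost without mutant-labelled replicate 2 (adjusted p = 0.0503). *Odc1*, ornithine decarboxylase itself, was at 11068 ± 2589 and 14908 ± 1621 (0.45, adjusted p = 0.0763, limma), and the paralog *Azin2* was at 460 and 525 (0.20, adjusted p = 0.365, limma).

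*Copa* (GSMG0001059, chr1:172082529-172122332) encodes the alpha subunit of coatomer I, the coat of vesicles that return from the Golgi to the endoplasmic reticulum. The control-labelled libraries had values of 47577, 47682 and 48335 and the mutant-labelled ones 38503, 40441 and 37211. The control-labelled values lay close together, and the groups did not overlap. The means were 47865 ± 411 and 38718 ± 1626 (SD, n = 3), and *Copa* fell by 19.1% (log2 fold change -0.31, SE 0.080, 95% interval -0.49 to -0.12, limma adjusted p = 0.0178). The call was lost in 8 of 17 other fits. It was lost where the libraries were scaled to the same total (-0.14, adjusted p = 0.167), a scaling that moved the median of all genes from 0.03 to 0.20, by 0.17. Relative to the median of all genes, *Copa* was at -0.34 as reported and at -0.35 on that scaling. It was also lost without control-labelled replicate 2, control-labelled replicate 3 or mutant-labelled replicate 3 (adjusted p = 0.0664, 0.0655 and 0.0522).

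Among 13 other genes of the coatomer and its Golgi partners, 1 rose, 3 fell and 9 did not pass the test (median log2 fold change -0.13). The share called was 35% over all genes and 53.3% over those with a mean of at least 1000. The subunit gene *Cope* fell from 8058 ± 593 to 6003 ± 181 (-0.42, adjusted p = 0.00748, limma), and so did *Kdelr1*, a receptor whose cargo coatomer vesicles carry back (-0.51, adjusted p = 0.00872, limma). *Copg2* fell by 0.32 and *Copb1* rose by 0.35 on the log2 scale, and both lost their calls under several other fits, with adjusted p up to 0.303 and 0.108. The subunit genes with the highest values, *Copb2* and *Copz1*, had log2 fold changes of 0.03 and -0.13 (adjusted p = 0.754 and 0.220, limma). *Sgce* and *Arpp19* had the profiles nearest to that of *Copa*, with differences of 0.016 and 0.024. The fibroblast and SC marker sums given above were lower in the mutant-labelled libraries too, and their part in the falls of *Copa*, *Cope* and *Kdelr1* was not tested.

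*Cog3* (GSMG0012669, chr14:75702350-75754515) encodes a subunit of the conserved oligomeric Golgi complex, a tether that holds vesicles at Golgi membranes. It had values of 1042, 974 and 921 in the control-labelled libraries and of 1003, 947 and 1071 in the mutant-labelled ones. The groups overlapped, with means of 979 ± 60.3 and 1007 ± 62.4 (SD, n = 3). The log2 fold change was 0.04 (SE 0.12, 95% interval -0.24 to 0.32, limma adjusted p = 0.820), and its sign changed in 4 of 17 other fits. Both bounds of the interval lie well inside a 2-fold change. *Cog3* overlaps 2 unnamed genes on its own strand, whose values reached at most 136. Of the rows of the other 7 COG subunits, the one that *Cog8* shares with *Pdf*, whose reads cannot be told apart, rose from 1466 ± 24.3 to 2387 ± 125 (0.70, adjusted p = 0.000958, limma), *Cog6* fell from 1236 to 897 (-0.46, adjusted p = 0.0154, limma) and 5 did not pass the test. Over all genes tested 35% were called, and 53.3% of those with a mean of at least 1000. The *Cog6* call was lost where libraries were scaled to the same total (adjusted p = 0.0852) or without control-labelled replicate 2.

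*Cyfip2* (GSMG0006575, chr11:46193850-46312860) encodes a subunit of the WAVE regulatory complex, which passes signals from the GTPase *Rac1* to actin branching, and it also binds the fragile X protein FMRP. It had the fewest reads of the 9, with 117 to 181 recovered in a library. Its values were 179.9, 171 and 162 in the control-labelled libraries and 85.1, 118 and 126 in the mutant-labelled ones. All mutant-labelled values were lower, but they spread widely, with means of 171 ± 8.84 and 109 ± 21.5 (SD, n = 3). The log2 fold change of -0.66 (SE 0.27, 95% interval -1.26 to -0.05) had an unadjusted p of 0.0369 and a limma adjusted p of 0.0882. *Cyfip2* had the widest interval of the 9, from almost no change to more than 2-fold. It was not called in any of 17 other fits, whose adjusted p lay between 0.0547 and 0.212.

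*Cyfip1*, the paralog that takes the same place in the complex, had far more reads and fell from 12897 ± 809 to 7719 ± 1106 (-0.75, adjusted p = 0.00179, limma). Of the 12 partner genes of the WAVE complex and its regulators, 2 rose, 5 fell and 5 did not pass the test (median log2 fold change -0.22). These calls stand beside 35% of all genes and 53.3% of those with a mean of at least 1000. *Wasf1*, which encodes WAVE1 and is the form best known from neural tissue, fell the most of the list, from 3970 ± 579 to 731 ± 350 (-2.53, adjusted p = 0.000307, limma). *Abi2* fell by 0.53 on the log2 scale, while its paralogs *Abi1* and *Abi3* rose, *Abi1* from 3237 to 4693 and *Abi3* from 93.1 to 265 (adjusted p = 0.00771 and 0.00174, limma). The *Abi2* call was lost on scaling to the same total (adjusted p = 0.0707). *Brk1*, the smallest subunit, and *Rac1* fell by 0.33 and 0.42, calls that were lost in 11 and 7 of 17 other fits. *Nckap1*, the partner that CYFIP proteins bind directly, was at 14359 and 13797 (-0.06, adjusted p = 0.590, limma).

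*Flna* (GSMG0042610, chrX:74223461-74246534) encodes filamin A, which crosslinks actin filaments and ties them to integrins. It had values of 80150.5, 69613 and 73602 in the control-labelled libraries and of 78457, 94158 and 85299.6 in the mutant-labelled ones. The groups overlapped, since mutant-labelled replicate 1 lay below control-labelled replicate 1. The means were 74455 ± 5321 and 85971 ± 7872 (SD, n = 3), with a log2 fold change of 0.21 (SE 0.10, 95% interval -0.03 to 0.44, limma adjusted p = 0.158). It passed the test only where the libraries were scaled to the same total (0.37, adjusted p = 0.0253). *Flna* is X-linked, and *Xist*, the RNA of the inactive X, had values of 7851, 0 and 6503 in the control-labelled and 0, 9325 and 0 in the mutant-labelled libraries. The groups therefore differ in their mix of females and males. In the control-labelled libraries *Flna* was lowest in the library without *Xist*, and in the mutant-labelled libraries highest in the one with it. Summed pericyte and vascular smooth muscle markers were 51277, 31599 and 25906 in the control-labelled and 34767, 88294 and 55866 in the mutant-labelled libraries. Like *Flna*, they were highest in control-labelled replicate 1 and mutant-labelled replicate 2, and 1 of these 8 markers rose. With 6 libraries neither the part of sex nor that of these cells in the level of *Flna* was tested.

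Of 11 genes of the filamin family and its partners, 5 rose, 2 fell and 4 did not pass the test (median log2 fold change 0.11), beside 35% of all genes called and 53.3% of those with a mean of at least 1000. *Fblim1*, which encodes a filamin-binding adaptor at cell adhesions, rose from 387 ± 179 to 2331 ± 387 (2.68, adjusted p = 0.000366, limma). The actin crosslinkers *Actn1* and *Actn4* rose by 1.85 and 0.88, and *Filip1l* by 1.84 (adjusted p = 0.00198, 0.000221 and 0.00107, limma). Like the smooth muscle sums given above, *Actn1* and *Filip1l* were highest in control-labelled replicate 1 and mutant-labelled replicate 2. The other genes of this list that rose were not highest in both, and the part of smooth muscle RNA was not tested. *Flnc*, the muscle filamin, rose from 7557 ± 921 to 14618 ± 1914 (0.95, adjusted p = 0.000731, limma). Beside it, 6 of 7 skeletal muscle markers rose too, and their summed values were 6649 to 35096 in the control-labelled and 44954 to 340494 in the mutant-labelled libraries. None of the 7 markers was at 0 in any library, and the part of muscle RNA in the rise of *Flnc* was not tested. *Filip1* and *Arhgap24* fell by 0.69 and 0.88 on the log2 scale (adjusted p = 0.0143 and 0.00943, limma).

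*Igfbp7* (GSMG0030665, chr5:77349240-77408046) encodes a secreted protein that binds insulin-like growth factors weakly and is abundant in the wall of blood vessels. Its values were 21880.1, 20398.5 and 16489 in the control-labelled libraries and 25988, 40219.7 and 30024 in the mutant-labelled ones. The groups did not overlap, but the mutant-labelled values were widely spread and led by replicate 2. The means were 19589 ± 2785 and 32077 ± 7335 (SD, n = 3), and *Igfbp7* rose 1.64-fold (log2 fold change 0.70, SE 0.17, 95% interval 0.31 to 1.09, limma adjusted p = 0.0138). Without control-labelled replicate 3, the lowest library, the log2 fold change was 0.58 and the call was lost (adjusted p = 0.0529). It was also lost in the fit without a trend (adjusted p = 0.0710). The summed values of 8 endothelial markers were 16723 to 24532 in the control-labelled and 26021 to 33348 in the mutant-labelled libraries. Mutant-labelled replicate 2 was again the highest, and 4 of the 8 rose, beside 19% of all genes. Those of 8 pericyte and vascular smooth muscle markers were 25906 to 51277 and 34767 to 88294, again with mutant-labelled replicate 2 the highest, and 1 of the 8 rose. None of the markers in these lists was at 0 in any library. Summed adipocyte markers were 7061 to 14737 in the control-labelled and 5159 to 28508 in the mutant-labelled libraries, with mutant-labelled replicate 2 the highest. None of these 5 passed the test, and *Plin1* and *Cidec* were at 0 in control-labelled replicate 2 and mutant-labelled replicate 3. The part of any of these cells in the rise of *Igfbp7* was not tested.

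Of the 12 other genes of the IGF system, 1 was higher, 1 lower and 10 not called (median log2 fold change 0.36), beside 35% of all genes called. *Igfbp3*, the main carrier of IGFs in serum, rose from 11719.5 ± 557 to 80430.4 ± 5441 (2.78, adjusted p = 1.35e-06, limma). *Igfbp2* fell from 2164 ± 226 to 968 ± 435 (-1.26, adjusted p = 0.0108, limma), although not in the fit without a trend (adjusted p = 0.0550). *Igfbp4*, *Igfbp6* and *Igf2* had log2 fold changes of 0.45, 0.44 and 0.39 with adjusted p of 0.0558, 0.0576 and 0.0649. Scaling to the same total raised the calls of this list from 2 to 7. *Igfbp5*, the family member with the highest values, was at 99651 and 100468 (-0.01, adjusted p = 0.985, limma).

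*Cdk13* (GSMG0010351, chr13:17715962-17805097) encodes a kinase that pairs with cyclin K and phosphorylates RNA polymerase II during elongation. Its values were 9392, 10116 and 10696.5 in the control-labelled libraries and 10653, 8979 and 9058 in the mutant-labelled ones. The groups overlapped, and the means of 10068 ± 654 and 9563 ± 944 (SD, n = 3) gave a log2 fold change of -0.08 (SE 0.10, 95% interval -0.31 to 0.15, limma adjusted p = 0.590). The sign turned where libraries were brought to 1 total (0.09) or to 1 level at the 75th percentile (0.02). *Cdk12*, the paralog with which *Cdk13* shares cyclin K, rose from 1397 ± 102 to 2348 ± 285 (0.74, adjusted p = 0.00221, limma), while *Ccnk*, cyclin K, was at 1227 and 1134 (-0.12, adjusted p = 0.477, limma). Of the 12 kinases, cyclins and cofactors of elongation and early transcription, 3 rose, 1 fell and 8 did not pass the test (median log2 fold change 0.20). Over all genes 35% were called. The other 2 that rose were *Mnat1* and *Ccnc* (0.54 and 0.50) and the one that fell was *Cdk9* (-0.37), and each of these lost its call in at least 5 of 17 other fits.

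*Blcap* (GSMG0023794, chr2:157556362-157566362) encodes a small conserved protein first found through its loss in bladder cancer. It had values of 2768, 2360.4 and 2427 in the control-labelled libraries and of 3104, 3329 and 3145 in the mutant-labelled ones. The groups did not overlap, with means of 2518 ± 219 and 3193 ± 119.7 (SD, n = 3). *Blcap* rose by 26.8% (log2 fold change 0.34, SE 0.10, 95% interval 0.11 to 0.58, limma adjusted p = 0.0297). The call was lost in 8 of 17 other fits, among them those without 1 of 5 libraries. It was lost without control-labelled replicate 2 (adjusted p = 0.117) or replicate 3 (0.0947), and without mutant-labelled replicate 1 (0.0533), 2 (0.0715) or 3 (0.0595). The imprinted gene *Nnat* (neuronatin) lies within *Blcap* on the opposite strand. The libraries were made from oriented cDNA, and whether the counting used strand is not given in the sources used here. *Nnat* was at 1857 ± 181 and 1663 ± 417, with overlapping groups (-0.18, adjusted p = 0.460, limma).

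**Figure D3:**
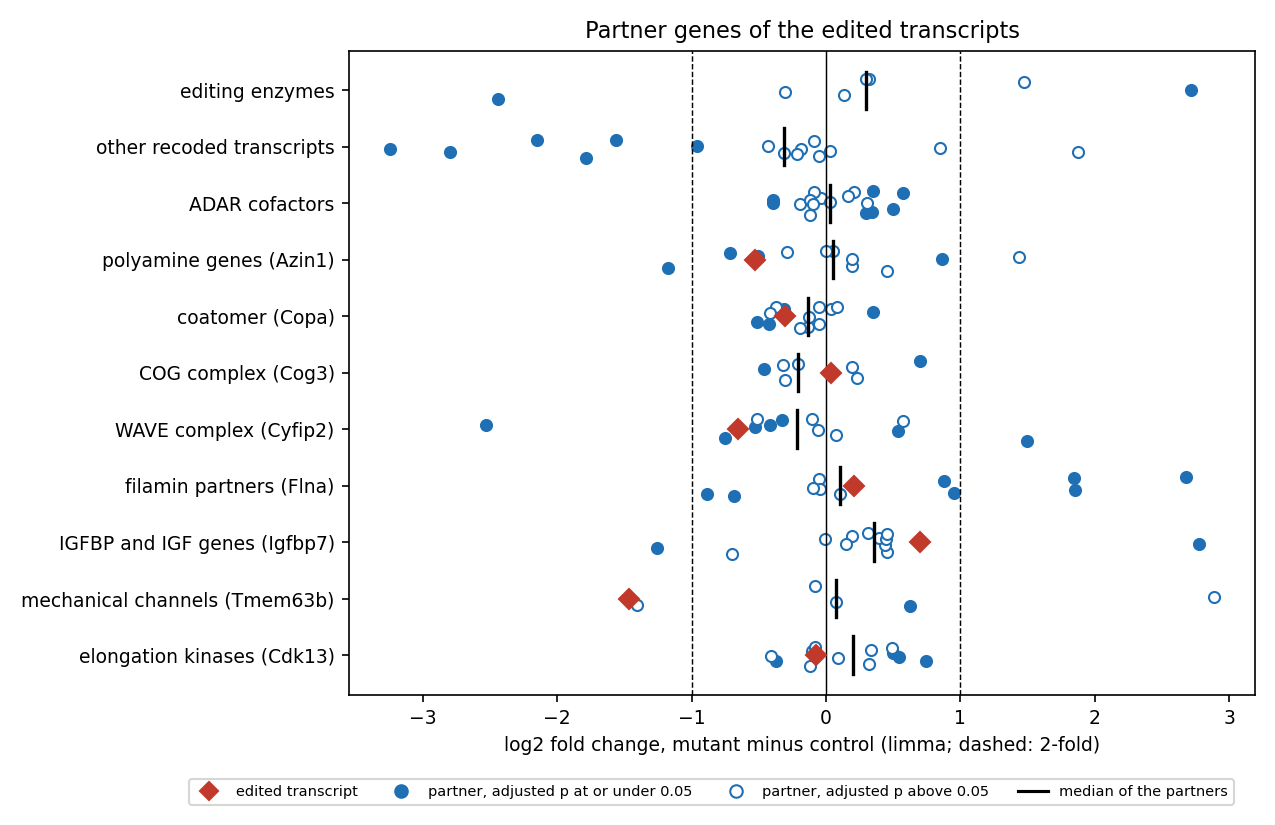
Log2 fold change, mutant minus control, of the genes in each partner list (circles, filled where the adjusted p is at or under 0.05) with the list median (black bar) and the edited transcript it belongs to (red diamond). Most lists have circles on both sides of 0 and medians between -0.31 and 0.36, and *Tmem63b* lies far below the median of 0.08 of the channel list.

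By the enzyme known to edit them, *Azin1*, a site of ADAR1, fell, while among the ADAR2 sites *Tmem63b* and *Copa* fell and *Flna* and *Cyfip2* did not pass the test. *Blcap*, which both enzymes edit, rose, and *Cog3*, *Igfbp7* and *Cdk13* are not placed by enzyme here. The genes of the other ADAR proteins had low values. *Adarb1* (ADAR2) had values of 123, 93.5 and 77.3 in the control-labelled and of 90.2, 194 and 99.9 in the mutant-labelled libraries, with overlapping groups (log2 fold change 0.32, SE 0.38, adjusted p = 0.544, limma). *Adarb2* (ADAR3), which binds double-stranded RNA without known editing activity, fell from 148 ± 26.6 to 32.2 ± 22 (-2.44, adjusted p = 0.0129, limma). The tRNA deaminases *Adat1* and *Adat2* had log2 fold changes of 0.30 and 0.13, and the row that *Adat3* shares with *Scamp4* had -0.31, and none passed the test.

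**Figure D4:**
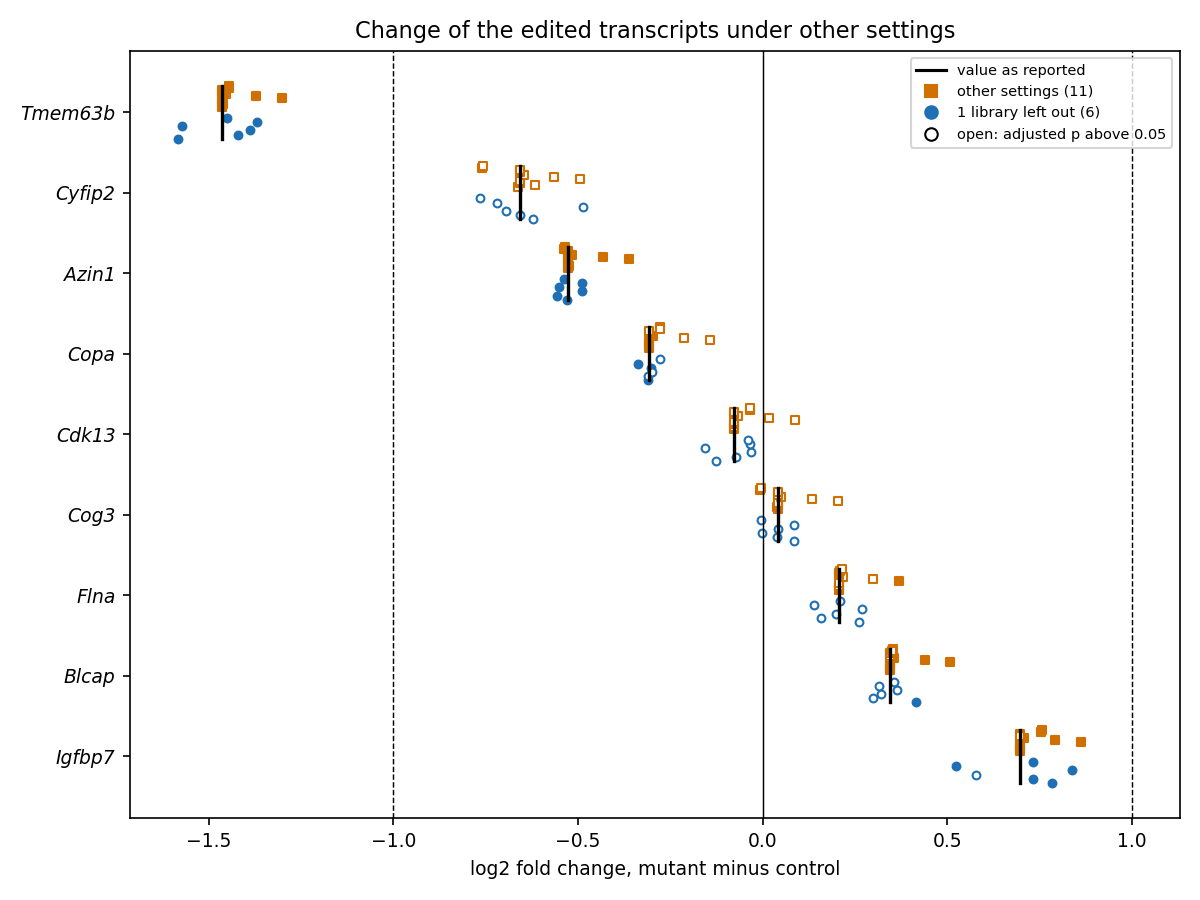
Log2 fold change of each edited transcript as reported (black bar), under 11 other settings (squares) and with each of 6 libraries left out (circles), filled where the adjusted p is at or under 0.05. *Tmem63b* and *Azin1* are filled throughout, *Blcap* and *Copa* lose the threshold in 8 of 17 fits each, and *Cog3* and *Cdk13* lie on both sides of 0.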

How the data were processed

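Per the labels and the methods of the study, poly-A RNA of 6 nerves (3 per group) was sequenced in paired ends, mapped to mm10 with STAR (2.4.0 in the submitters' processing notes) and counted over the constitutive regions of FAST DB genes. The authors deposited these counts after division by DESeq2 size factors, a normalised signal for each gene. The cDNA was oriented, and whether counting used strand is not given in the sources used here. In 5 libraries, 100% of genes held a whole number of reads (within 0.1 read) once divided by what 1 read is worth. The values of mutant replicate 3 show whole steps too, but the criterion applied here for recovered reads asks for a worth that differs clearly from 1, which this library does not meet, so its reads were not used. This limit comes from the criterion and not from the data.

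log2(value + 1) was fitted with limma as mutant minus control (lmFit, eBayes with trend) for the 25802 genes with a mean of at least 10 in at least 1 group, with Benjamini-Hochberg adjustment over all of them. A gene rose or fell with an adjusted p at or under 0.05. A fold change is on this scale, where the added 1 shrinks differences between low values, and it can differ in either direction from the ratio of the group means. The labels give 1 animal per library, and an exact two-sided permutation test of 3 against 3 cannot go below p = 0.1, which it gave for the 6 edited transcripts whose groups did not overlap.

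The transcripts, partner lists and markers were chosen with earlier results of these data known. All 9 transcripts are named. Of each partner list the genes that passed the test may be named or, where none did, those with the highest mean, and other members are named with their values where they complete a complex. For each transcript the 2 genes with the nearest profile (root-mean-square difference of log2 values centred on the controls, mean of at least 100) were found. Those of some transcripts are given under the other observations. No pathway or set test was run. The values of some single genes are left out.

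Alternatives were pseudocounts of 0.1 and 10, other filters, other scalings, no trend, a block for the replicate number, edgeR's quasi-likelihood test, DESeq2, and each library left out. Recoded adenosines are known from the field and were located in GENCODE M21 transcripts by their codon. The fit was tested on simulated data. R 4.3.3, limma 3.58.1, edgeR 4.0.16, DESeq2 1.42.0, Python 3.11.15, biopython 1.88 and matplotlib 3.10.9 were used.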

Additional observations from a re-analysis of the deposited data

How the results depend on the processing

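*Tmem63b* and *Azin1* kept direction and call under all 17 other fits, and the number of edited transcripts past the study's limits stayed 1. Scaling to the same total gave -0.14 for *Copa* (adjusted p = 0.167), 0.37 for *Flna* (0.0253) and 0.087 for *Cdk13* (0.505), which reversed, and called 4 WAVE and 7 IGF genes. The same 75th percentile gave -0.21 for *Copa* (0.114) and 0.017 for *Cdk13* (0.908), which reversed, and called 1 COG and 5 IGF genes. These 2 scalings moved the median of all genes by 0.17 and 0.098 and the share of rises among all calls from 54.3 to 67.1 and 61.7%. Without a trend in eBayes, *Blcap* at 0.34 (0.102), *Copa* at -0.31 (0.1001) and *Igfbp7* at 0.70 (0.0710) lost the threshold, leaving 2 of 9 called and 0 that rose, and 6999 genes in all were called in place of 9040. In the edgeR and DESeq2 fits *Cog3* reversed, at -0.0067 and -0.0049. edgeR gave *Blcap* 0.35 (0.0716) and *Copa* -0.28 (0.0589), with 3 of 9 called, 1 that rose, 4 ADAR cofactors and 1 elongation gene, and DESeq2 called 5 IGF genes. The limma fit on the same 5 libraries, without mutant replicate 3, gave nearly the same values as edgeR (*Cog3* -0.0050, *Blcap* 0.36 with adjusted p = 0.0595, *Copa* -0.28 with 0.0522, and 3 of 9 called). DESeq2 on these 5 libraries kept the calls of *Blcap* and *Copa*. The cause of the other differences was not tested.

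The edgeR and DESeq2 fits used the recovered reads of 5 libraries, since those of mutant replicate 3 were not used. The planned count tests and TMM factors on the reads of 6 libraries were not run, and these fits and TMM on the deposited values were chosen after seeing the data.

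The replicate numbers of the labels stand for different animals, and same-numbered libraries did not deviate together (r = -0.062, -0.055 and 0.0089), so the numbers give no pairing. With the replicate block *Blcap* was at 0.34 (adjusted p = 0.0755) and *Copa* at -0.31 (0.0719), with 3 of 9 called, 1 that rose, 4 ADAR cofactors, 5 IGF genes and 2 elongation genes. It called 7730 genes in all.

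With each library left out in turn, log2 fold changes ran from 0.30 to 0.41 for *Blcap*, -0.34 to -0.28 for *Copa*, -0.0050 to 0.086 for *Cog3* and 0.52 to 0.84 for *Igfbp7*. *Cog3* reversed without control replicate 3 (-0.0024) and without mutant replicate 3 (-0.0050). The edited transcripts called ran from 2 to 5, those that rose from 0 to 2 and those that fell from 2 to 3. Of the 9, 2 were called and 0 rose without control replicate 3, and 3 were called and 1 rose without control replicate 2 or mutant replicate 3. Calls ran from 4 to 8 for ADAR cofactors, 2 to 5 for the coatomer, 1 to 2 for COG, 2 to 4 for the IGF system, 1 to 2 for the channels and 1 to 6 for elongation. The low coatomer count came without control replicate 2 or 3, that of COG without control replicate 2, that of elongation without control replicate 2 or mutant replicate 3, and that of the cofactors without control replicate 1 or 3 or mutant replicate 1 or 3. The high count of the channels (*Tmem63c*) came without control replicate 2 and that of the IGF system without control replicate 1. Of the 46 partner genes called, 25 kept the call in all 17 other fits and 0 changed sign. *Cyfip2* had the fewest reads and the widest interval, and the part of depth in that width was not tested.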

Other observations

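Further transcripts with known recoding sites, most of them best known from neurons, held 6 genes that fell, 0 that rose and 9 that did not pass the test among 15 tested of 16 listed (median log2 fold change -0.31), beside 16% of all genes that fell and 19% that rose. *Gria2*, the AMPA receptor subunit whose calcium permeability editing sets, had values of 1768, 1348 and 1490.2 in the control-labelled and of 256, 97.4 and 165 in the mutant-labelled libraries. The groups were far apart, and the log2 fold change was -3.24 (SE 0.32, limma adjusted p = 0.000151). Its relative *Gria4* fell from 540.3 ± 78.6 to 162 ± 53.9 (-1.78, adjusted p = 0.00172, limma), and the kainate receptor subunits *Grik2* and *Grik1* fell by 0.96 and 1.56 on the log2 scale. The *Grik1* call was lost in 8 of 17 other fits. *Kcna1*, a potassium channel subunit that is edited in its pore, had the highest values of the list in the control-labelled libraries and fell from 52401 ± 4905 to 11939 ± 2593 (-2.15, adjusted p = 3.84e-05, limma). *Cacna1d*, a calcium channel subunit, fell from 686 ± 90 to 100.4 ± 29.1 (-2.80, adjusted p = 0.000129, limma). The well expressed *Son*, a splicing factor, was at 34699 and 32778.5 (-0.09, adjusted p = 0.563, limma). The falls stand beside that of the SC markers, while the summed neuronal markers were higher in the mutant-labelled libraries, at 4135 to 4465 against 1559 to 1947, with 3 of 5 higher by the test and Rbfox3 at 0 in control-labelled replicate 1. Their part in these falls was not tested.

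Of the genes of 17 proteins reported to bind ADAR enzymes or their double-stranded RNA, 5 rose, 2 fell and 10 did not pass the test (median log2 fold change 0.03). Calls were made for 35% of all genes and 53.3% of those with a mean of at least 1000. *Dhx15*, an RNA helicase, rose from 9312 to 13173 (0.50, adjusted p = 0.00173, limma) and *Aimp2*, a scaffold of tRNA synthetases, from 866 to 1285 (0.57, adjusted p = 0.0112, limma), and both kept the call in all 17 other fits. The rises of *Stau1* and *Fxr1* (0.34 and 0.30) and the falls of *Wwp2* and *Prkra* (-0.40 and -0.39) were each lost in at least 1 of these fits. *Dhx9*, the helicase that unwinds repeat duplexes, was at 3152 and 3217 (0.03, adjusted p = 0.861, limma).

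The profiles nearest to the other edited transcripts over the 6 libraries were *Slc30a5* for *Azin1* (root-mean-square difference 0.031 on the log2 scale), *Tspyl1* for *Blcap* (0.037), *Eif2a* for *Cog3* (0.034), *Dpm3* for *Cyfip2* (0.058), *Rab11a* for *Flna* (0.038), *Net1* for *Igfbp7* (0.078, behind an unnamed Riken gene at 0.076) and *Cndp2* for *Cdk13* (0.025).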
